A study of Mus musculus with 2 samples.

Results

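Nuclear hormone receptors are transcription factors, most of which bind DNA through a pair of zinc fingers and are switched by a small fat-soluble ligand such as a steroid, a thyroid hormone, a retinoid, a bile acid or an oxysterol. Ligand exchanges corepressors for coactivators on the receptor, and many of the receptors that bind retinoids, thyroid hormone or lipids do so as heterodimers with a retinoid X receptor. In blood-forming tissue, glucocorticoids kill developing lymphocytes, retinoic acid drives differentiation of myeloid and B cells, and receptors without a known ligand, the orphans, include genes induced within minutes of receptor signals.

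The steady-state mRNA of 46 nuclear hormone receptor genes was examined in RNA-seq of mouse B cell precursors. The genes were taken by symbol from a list, and for each the FPKM (a read count corrected for transcript length and library depth) of all its protein-coding RefSeq transcripts were summed. They are 46 of the 20246 genes so formed and hold 72 transcripts. The series compared the B cell precursor stages before and after commitment with 1 library each. The pre-pro-B library came from *Ebf1 -/-* cells, derived from fetal liver of female embryos and grown with Il-7, Scf and Flt3l. The pro-B library came from *Rag2 -/-* cells, derived from bone marrow of male adult mice and grown with Il-7 alone. Both had the C57BL/6 background and were cultured on OP-9 stromal cells, a bone marrow-derived mouse line that supports lymphocyte development, from which they were separated by washing and by letting remaining stromal cells attach. *Ebf1 -/-* cells lack the factor that specifies the B lineage, and *Rag2 -/-* cells cannot rearrange their antigen receptor genes, so each line is a stage held by its mutation and not a stage sampled from normal marrow. Stage therefore cannot be told apart from genotype, sex, age, tissue of origin and cytokines. No difference has a replicate check, and no test against the spread of replicates was possible. A lower level cannot be told apart as fewer cells with the RNA or less RNA per cell.

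*Ebf1* had an FPKM of 64.0 in the pre-pro-B and 273 in the pro-B library, and *Rag2* had 34.5 and 22.9, so neither targeted gene was at 0 in its mutant and each was lower there. These values cover whole transcripts and do not show whether the deleted part was read. All 9 B lineage markers were higher in pro-B cells, among them *Pax5* at 1.13 and 239. Of 6 progenitor markers, 5 were lower in pro-B cells, and these included *Ptprc*, which encodes the CD45 antigen of nearly all blood cells and stood at 269 and 0.917. So low a level of *Ptprc* is unusual for blood cells, and FPKM alone cannot show whether its estimate failed in the pro-B library. All 5 myeloid markers that reached an FPKM of 1 were lower in pro-B cells, with *Tyrobp* at 463 and 1.28. The summed FPKM of 14 stromal markers was 25.0 in the pre-pro-B and 27.8 in the pro-B library, with *Fn1* at 1.16 and 5.16, *Pdgfrb* at 15.9 and 0.377, and *Dcn* and *Postn* listed at 0 in both. Of these 14, 9 reached an FPKM of 1, of which 4 were higher and 1 was lower. Of 6 T lineage markers, 3 reached that level and 2 were lower, with *Cd3g* at 36.8 and 0.0351. None of the 4 erythroid markers in the table reached an FPKM of 1.

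Promoter sequence, from 250 bases before to 50 bases after each annotated start, was available for 42 of the 46 receptors from RefSeq (build GRCm38.p6). *Hnf4g*, *Nr3c1*, *Nr5a1* and *Thra* were not matched. Receptors of this family recognise the core site AGGTCA or close relatives of it, and direct repeats of that core with 5 bases between them (a DR5 element) bind retinoic acid receptors. Among the receptor promoters, 1 gene, *Rarb*, held a DR5 element, and 0.0974% of all 32851 promoters of that length did. Its stretch is shown with that of *Cyp26a1*, which encodes the enzyme that breaks down retinoic acid, because both genes are textbook targets of these receptors and because the levels of the receptors themselves differed between the libraries. Another stretch holds the element bound by REV-ERB and ROR receptors (RORE, searched as AANTAGGTCA), from *Arntl*, which encodes the circadian activator Bmal1. Capitals mark the element, each stretch runs 5′ to 3′ on the strand of its gene, and both strands were searched.
Rarb: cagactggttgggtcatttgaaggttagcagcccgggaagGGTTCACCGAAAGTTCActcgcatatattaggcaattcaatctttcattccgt
Cyp26a1: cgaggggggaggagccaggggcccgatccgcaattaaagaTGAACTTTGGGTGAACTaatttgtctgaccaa
Arntl: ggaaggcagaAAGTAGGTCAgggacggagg

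The *Rarb* stretch is chr14:16575477-16575569 on the minus strand, and its element starts 53 bases before the start of transcription. The *Cyp26a1* stretch is chr19:37697736-37697807 on the plus strand. Its element reads in the opposite direction, and its edge farther from the start lies 32 bases before the start. The *Arntl* stretch is chr7:113207528-113207557 on the plus strand, and its element begins 27 bases after the start. A match is a description of letters and not of binding. *Rarb* stood at an FPKM of 0.101 and 0.419 in the pre-pro-B and pro-B libraries, and *Cyp26a1* at 0.0433 and 0. *Arntl* had 8.53 and 164. Direct repeats with 1 to 4 bases between cores were found in no receptor promoter, and in 0.222%, 0.268%, 0.0396% and 0.0822% of all promoters in order of spacing. The EBF element TCCCNNGGGA, the textbook core of the site for the factor that the pre-pro-B cells lack, was also in no receptor promoter window and in 0.904% of all.

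A gene was called detected here where it reached an FPKM of 1 in either library. By that measure 19 of the 46 receptors (41.3%) were detected, against 10525 of all 20246 genes (52.0%). Of these 19, 12 reached that level in both libraries, 5 at the pre-pro-B stage alone and 2 at the pro-B stage alone. The other 27 lay below it in both libraries, 10 of them listed at 0 in both and 17 above 0 in at least 1, with a highest value of 0.681 for *Vdr*, the vitamin D receptor, at the pre-pro-B stage. A listed 0 can be a failed estimate and is not read as absence. A gene was counted as higher or lower where it differed by at least 2-fold on the log2(FPKM + 1) scale, which understates the change of low genes. By this rule 1 of the 19 receptors, *Thrb*, was higher in pro-B cells (5.26%), where 12.2% of all detected genes were. The rule counted 8 receptors as lower in pro-B cells (42.1%), namely *Esr1*, *Rara*, *Rarg*, *Thra*, *Nr1d1*, *Nr4a1*, *Nr4a2* and *Nr2c1*, where 19.1% of all detected genes were. The remaining 10 lay within 2-fold, of which *Esrra*, *Ppard* and *Nr6a1* passed 2-fold with a pseudocount of 0.1 or with none. The summed FPKM of the 9 myeloid markers, 919 in the pre-pro-B and 9.29 in the pro-B library, was lower together with these 8 receptors. *Tyrobp* (463 and 1.28) and *Fcer1g* (395 and 1.46) held most of the 919. Of the 9 markers 5 reached an FPKM of 1 in a library, and *Elane* was at 0 in both. The part of myeloid cells in these 8 receptors was not tested. The median log2 change of the 19 was -0.87, and that of all detected genes was -0.14. A receptor below 1 in a library could pass only through the other library, where it was high. Among the 12 receptors at or above 1 in both libraries, 3 (*Rara*, *Thra* and *Nr2c1*) were lower and 0 were higher. Under that filter 918 of 8850 genes were higher and 998 were lower.

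The limits that Cuffdiff gave for single transcripts were wide. They come from its model within a library and not from replicates. For the most abundant transcript of each gene, the 95% limits of the libraries did not overlap for 1 of the 19 receptors, *Nr4a2*, and for 4.84% of all detected genes. The *Nr4a2* exception rests on how reads were divided between its transcripts, described with that gene. For every other detected receptor the limits of that transcript overlapped.

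**Figure D1:**
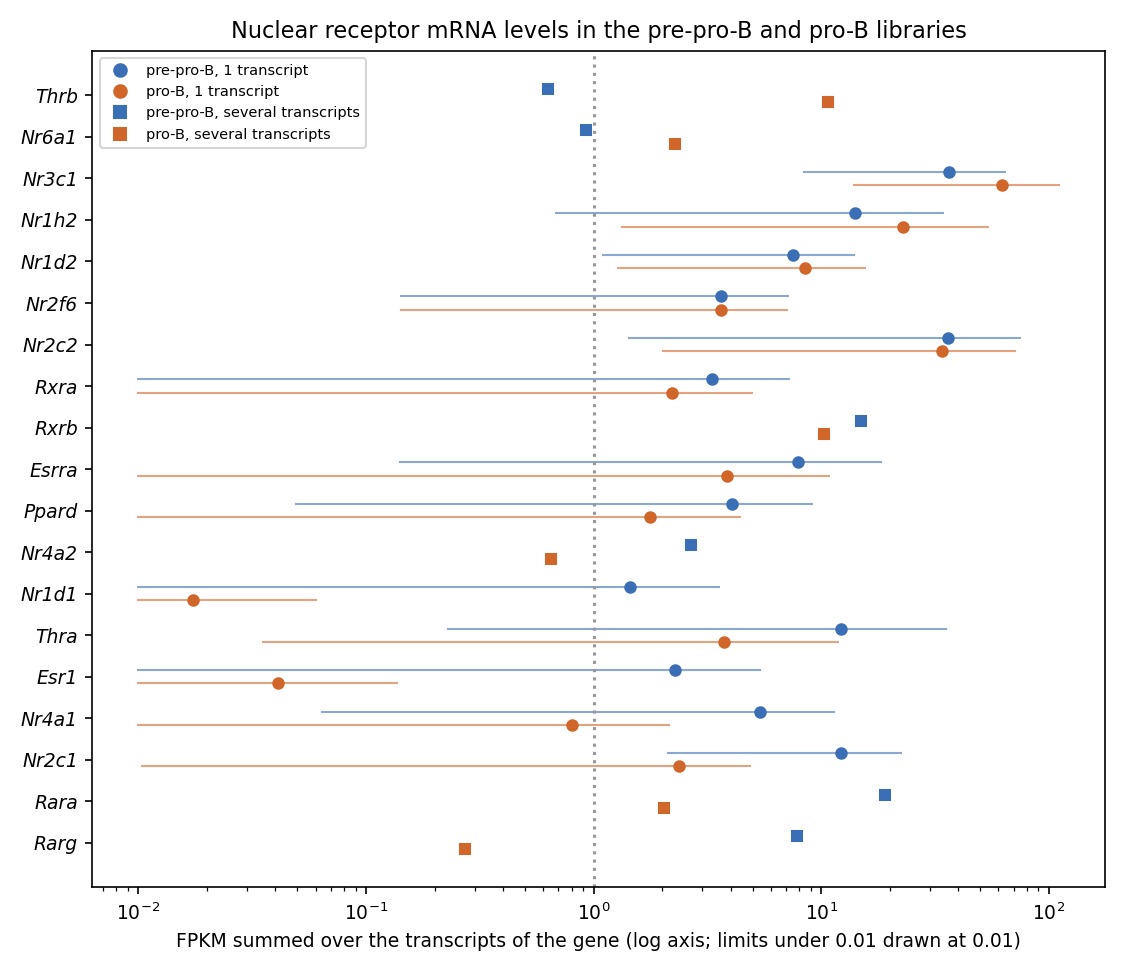
Summed FPKM (log axis) of the 19 detected receptors, in the pre-pro-B library (blue) and the pro-B library (orange), ordered by log2 change. Circles are genes with 1 transcript and carry Cuffdiff's 95% limits as lines, squares are genes with several transcripts, and the dotted line marks an FPKM of 1; *Thrb* at the top went from 0.633 to 10.7 and *Rarg* at the bottom from 7.79 to 0.273.

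The steroid receptors were led by *Nr3c1*, which encodes the glucocorticoid receptor. *Nr3c1* (NM_008173) had the highest level of any receptor in both libraries, 36.5 at the pre-pro-B stage (95% limits 8.45 to 64.5) and 62.4 at the pro-B stage (13.9 to 111). Its log2 change of 0.76 was within 2-fold. Its share of the FPKM summed over all 46 receptors was 18.7% at the pre-pro-B stage and 35.8% at the pro-B stage, while that sum was 195 and 174. *Esr1*, the estrogen receptor alpha gene, had 2.28 at the pre-pro-B stage (0 to 5.38) and 0.0410 at the pro-B stage (0 to 0.137), a log2 change of -1.65 and, at the nominal depth of 90000000 reads per library and as if all reads aligned, about 885 and 15.9 reads. Its counterpart *Esr2* and the progesterone receptor gene *Pgr* were listed at 0 in both, and the mineralocorticoid receptor gene *Nr3c2* stood at 0.0337 and 0.457. The estrogen-related orphan *Esrra*, which works with PGC-1 coactivators on genes of mitochondrial metabolism, had 7.88 and 3.86. Its log2 change of -0.87 lay just inside the 2-fold limit, and *Esrrb* and *Esrrg* were at most 0.0463.

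The retinoic acid receptors, which turn on genes when retinoic acid is bound, were lower in sum in pro-B cells. *Rara*, which encodes retinoic acid receptor alpha, had an FPKM of 19.1 at the pre-pro-B stage and 2.04 at the pro-B stage, a log2 change of -2.73 and a 9.37-fold lower FPKM. *Rarg*, retinoic acid receptor gamma, had 7.79 and 0.273, a log2 change of -2.79. With *Rarb*, the 3 genes summed to 27.0 at the pre-pro-B stage and 2.73 at the pro-B stage, 9.89-fold less. Their heterodimer partners, the retinoid X receptors, lay within 2-fold. *Rxrb* had 14.9 and 10.3, *Rxra* had 3.32 and 2.21, and *Rxrg* was listed at 0 in both. The ratio of summed retinoic acid receptor to summed retinoid X receptor FPKM was 1.48 at the pre-pro-B stage and 0.218 at the pro-B stage. The ratio of *Rxrb* to *Rxra* was 4.50 and 4.66.

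The largest estimate of *Rara* fell on a different transcript in each library, and that of *Rarg* on the same one, but both rankings rest on near ties. The leading transcript held 52.7% of *Rara* at the pre-pro-B stage, where the limits of the first 2 transcripts overlapped. Of *Rara*, transcript NM_001177303 had an FPKM of 10.1 (95% limits 0.102 to 24.2) at the pre-pro-B stage and 0.283 (0 to 1.39) at the pro-B stage. Transcript NM_009024 had 8.59 (0.135 to 21.1) and 1.72 (0 to 4.25), so that its share of the gene was 44.9% at the pre-pro-B stage and 84.5% at the pro-B stage. Of *Rarg*, NM_001042727 held 99.2% of the level at the pre-pro-B stage and 51.8% at the pro-B stage, where its 0.141 and the 0.132 of NM_011244 had overlapping limits from 0. The 4 transcripts of *Rxrb* each held between 9.77% and 41.3% of the gene in both libraries. The division of reads between transcripts of 1 gene is an estimate by Cuffdiff, and it enters the gene sums only through the lengths of the transcripts.

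The thyroid hormone receptors differed in opposite directions. *Thra*, which encodes thyroid hormone receptor alpha, had an FPKM of 12.2 at the pre-pro-B stage (95% limits 0.229 to 35.4) and 3.73 at the pro-B stage (0.0352 to 11.9), a log2 change of -1.49. *Thrb*, for thyroid hormone receptor beta, had 0.633 and 10.7, a log2 change of 2.84. Its main transcript NM_001113417 had limits of 0 to 1.73 at the pre-pro-B stage and 0.510 to 21.1 at the pro-B stage. These levels of that transcript amount to about 342 and 5760 nominal reads. Summed, the 2 genes differed little, at 12.9 and 14.4, while the ratio of *Thra* to *Thrb* was 19.3 at the pre-pro-B stage and 0.349 at the pro-B stage. *Vdr* was at 0.681 and 0.0356.

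Of the lipid-sensing receptors, *Nr1h2*, the liver X receptor beta that responds to oxysterols, had an FPKM of 14.1 at the pre-pro-B stage and 22.9 at the pro-B stage, a log2 change of 0.66. Its paralog *Nr1h3*, liver X receptor alpha, which macrophages are known to express, was at 0.344 and listed at 0. *Ppard*, a receptor for fatty acids, had 4.08 and 1.76, and its log2 change of -0.88 was within 2-fold. *Pparg*, the adipocyte regulator, was at 0.295 and 0.553 and *Ppara* at 0.0511 and 0.0314. The 14 stromal markers summed to 25.0 in the pre-pro-B and 27.8 in the pro-B library. Without *Pdgfrb* (15.9 and 0.377), left out after its values were seen, the other 13 summed to 9.04 and 27.4. *Pparg* was below 1 in both, and the limits of its main transcript overlapped (0 to 0.879 and 0 to 1.57). The part of stromal cells in *Pparg* was not tested. The bile acid receptor gene *Nr1h4* was at 0.400 and 0, and the xenobiotic receptor genes *Nr1i2* and *Nr1i3* were at 0 and at most 0.0885.

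The clock-linked receptors repress or activate circadian genes from the same DNA element. *Nr1d1*, which encodes the repressor REV-ERB alpha, had an FPKM of 1.45 (95% limits 0 to 3.55) at the pre-pro-B stage and 0.0173 (0 to 0.0602) at the pro-B stage, about 343 and 4.09 nominal reads. Its log2 change was -1.27. *Nr1d2*, for REV-ERB beta, had 7.55 and 8.45, a log2 change of 0.14. The activating receptor *Rora* was at 0.535 and 0.128, and *Rorb* was listed at 0 and at 0.0225.

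The NR4A receptors, immediate early genes that follow antigen receptor and cytokine signals, summed to 8.03 at the pre-pro-B stage and 1.57 at the pro-B stage. *Nr4a1* (Nur77) had 5.37 and 0.803, a log2 change of -1.82. *Nr4a2* (Nurr1) had 2.67 and 0.648, a log2 change of -1.15, and *Nr4a3* was listed at 0 and at 0.117. For *Nr4a2* the estimate put 99.9% of the level on NM_013613 at the pre-pro-B stage and 99.5% on NM_001139509 at the pro-B stage. The transcript left with the remainder in each library was given limits of 0 to 0, below its own FPKM of 0.00170 or 0.00311.

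Among the orphans of the NR2 group, *Nr2c2* (TR4) was the second most abundant receptor in both libraries, with 36.0 at the pre-pro-B stage and 34.0 at the pro-B stage. Its paralog *Nr2c1* (TR2), with which it forms a heterodimer known for silencing embryonic globin genes, had 12.2 (95% limits 2.13 to 22.3) and 2.38 (0.0103 to 4.88), a log2 change of -1.97. The ratio of *Nr2c2* to *Nr2c1* was 2.94 at the pre-pro-B stage and 14.3 at the pro-B stage. *Nr2f6* had 3.63 and 3.61. The related *Nr2f1* and *Nr2f2*, which mesenchymal cells are known to express, were listed at 0 at the pre-pro-B stage and at 0.101 and 0.0591 at the pro-B stage. The liver receptor gene *Hnf4a* was at 0.141 and 0, and *Nr2e1*, *Nr2e3* and *Hnf4g* were listed at 0 in both. *Nr6a1*, the germ cell nuclear factor, had 0.925 and 2.28, a log2 change of 0.77. *Nr5a1*, *Nr5a2* and the receptors without a DNA-binding domain, *Nr0b1* and *Nr0b2*, were listed at 0 in both libraries.

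**Figure D2:**
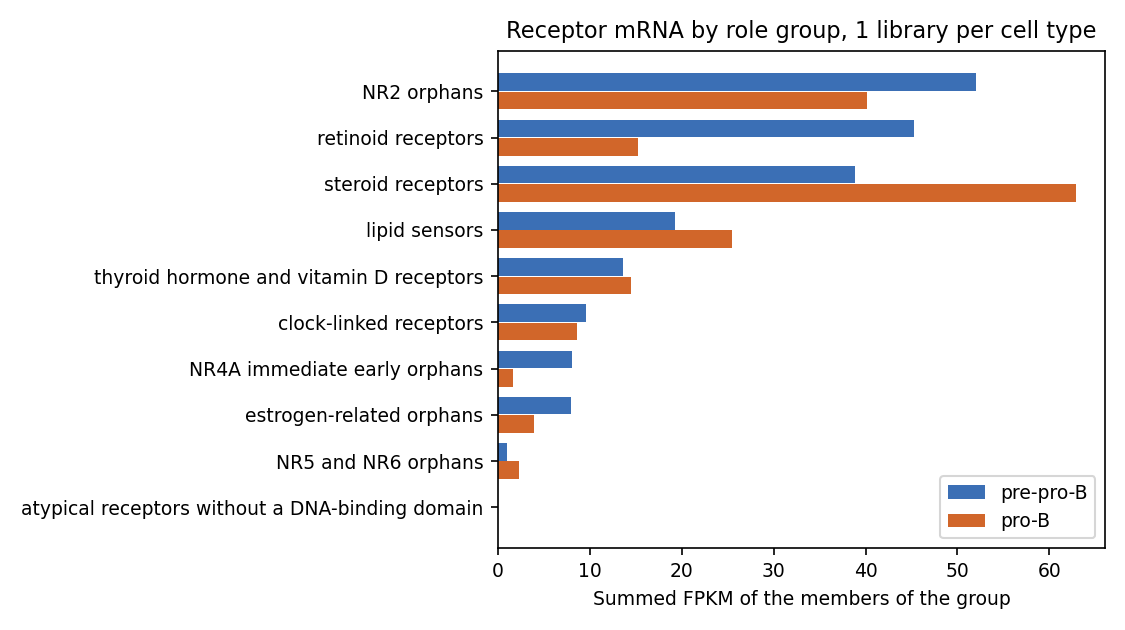
Summed FPKM of each role group in the pre-pro-B library (blue) and the pro-B library (orange), 1 library per cell type. Retinoid receptors summed to 45.3 and 15.3, steroid receptors, mostly *Nr3c1*, to 38.8 and 62.9, and NR4A receptors to 8.03 and 1.57.

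Fewer receptors made up most of the level in pro-B cells. The 5 most abundant receptors in pro-B cells, *Nr3c1*, *Nr2c2*, *Nr1h2*, *Thrb* and *Rxrb*, held 80.4% of the summed receptor FPKM there. In pre-pro-B cells the 5 most abundant were *Nr3c1*, *Nr2c2*, *Rara*, *Rxrb* and *Nr1h2*, with 61.8%. Retinoid receptors held 23.2% of the sum at the pre-pro-B stage and 8.74% at the pro-B stage. *Rara* was number 3 by level at the pre-pro-B stage and number 13 at the pro-B stage, and *Thrb* was number 20 and number 4.

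**Figure D3:**
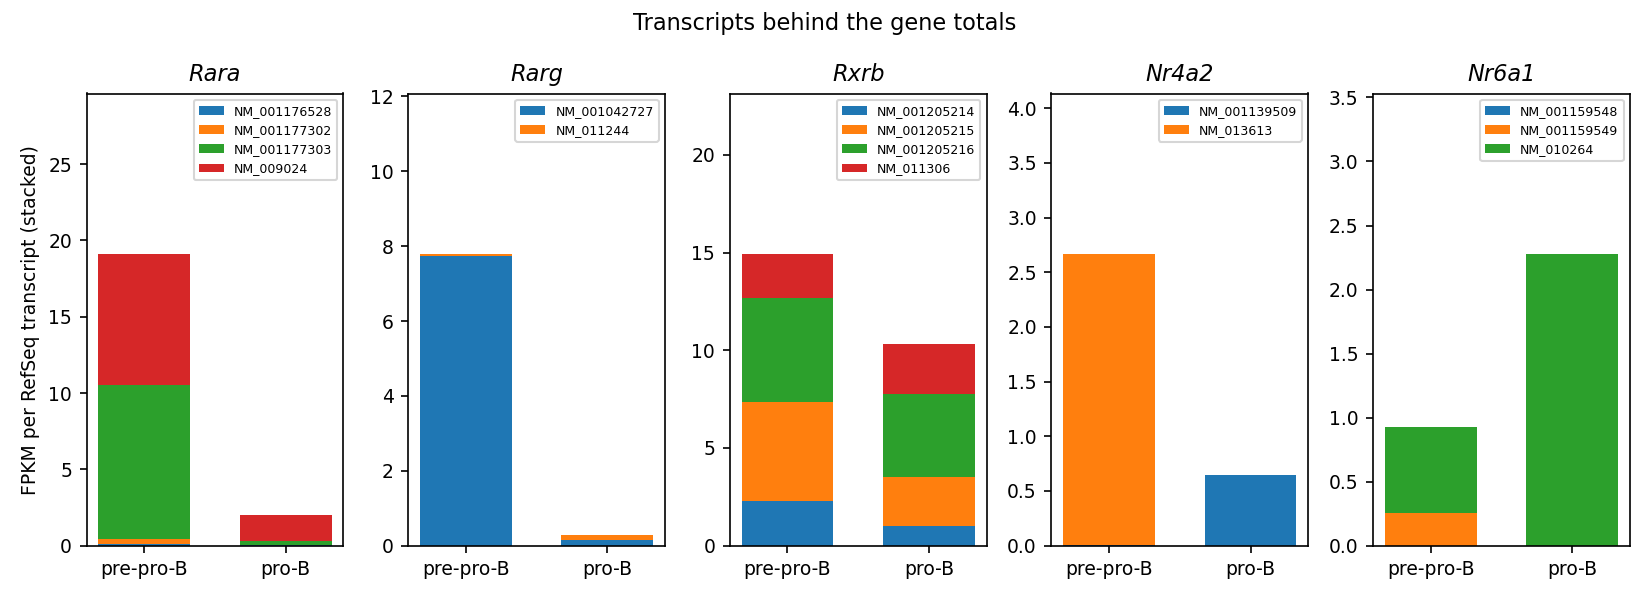
FPKM of each RefSeq transcript, stacked to the gene total, for 5 receptors with several transcripts in the pre-pro-B and pro-B libraries. *Rara* had totals of 19.1 and 2.04 and *Rarg* of 7.79 and 0.273, *Rxrb* kept all 4 transcripts, and the level of *Nr4a2* was assigned to a different transcript in each library.

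A number of these receptor genes lie together. On chromosome 11 of mm9, *Thra* (98601952 to 98630320, plus strand), *Nr1d1* (98629246 to 98636647, minus strand) and *Rara* (98789132 to 98836256, plus strand) fall within 234 kb. On chromosome 14 their paralogs *Rarb* (17263356 to 17651381, minus strand), *Thrb* (18493474 to 18870602, plus strand) and *Nr1d2* (19036568 to 19071641, minus strand) fall within 1808 kb. The trio on chromosome 11 summed to an FPKM of 32.8 at the pre-pro-B stage and 5.78 at the pro-B stage, and all 3 genes were lower. The trio on chromosome 14 summed to 8.29 and 19.5, with *Thrb* higher, *Nr1d2* within 2-fold and *Rarb* below 1 in both libraries.

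By the 2-fold rule, no other detected gene near the chromosome 11 trio was lower in pro-B cells. Within the span on chromosome 11 and 100 kb to either side, 9 other genes were detected, of which in pro-B cells 3 were higher, 0 were lower and 6 were within 2-fold. Of all detected genes 12.2% were higher and 19.1% were lower, and 9 genes are too few to set against those shares. *Rapgefl1* had 0.959 and 10.9, *Cdc6*, the replication licensing factor next to *Rara*, had 6.93 and 27.0, and *Top2a*, the DNA topoisomerase of dividing cells, had 138 and 622. *Casc3* and *Msl1*, between *Nr1d1* and *Rara*, were within 2-fold. Also within that limit but lower were *Wipf2*, in the same interval, at 8.26 and 4.31 (log2 change -0.80), and *Igfbp4* at 128 and 76.2 (-0.74). All 4 other genes at the chromosome 14 trio were within 2-fold, with *Top2b* at 129 and 191. The annotated *Thra* and *Nr1d1* overlap tail to tail by 1075 bases on opposite strands. The reads were aligned strand by strand, and the counted RefSeq transcript of *Thra* ends 2820 bases before *Nr1d1*.

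**Figure D4:**
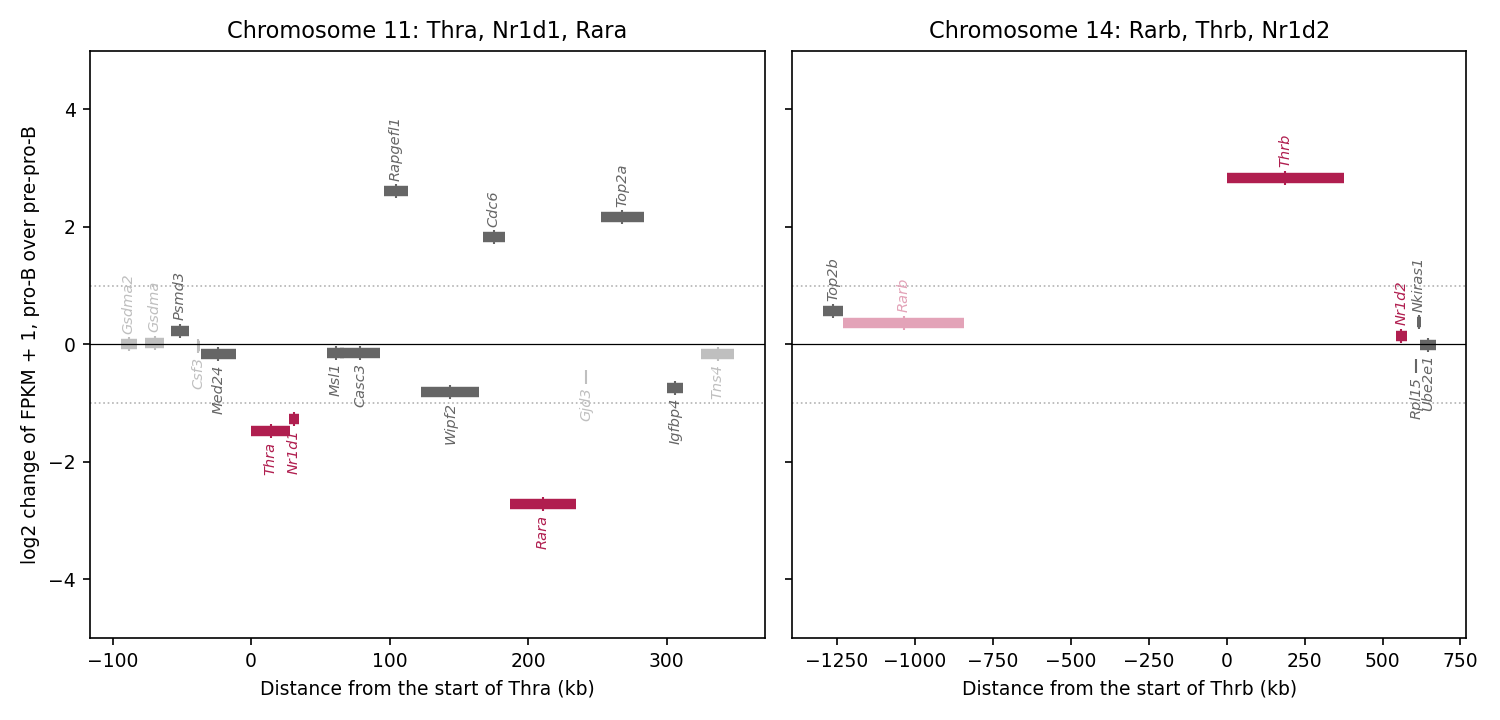
Log2 change of FPKM + 1 (pro-B over pre-pro-B) of each gene against distance in kb from the start of *Thra* (left) or *Thrb* (right), with receptors in red, other genes in grey, and undetected genes in pale shades; each bar spans its gene. *Thra*, *Nr1d1* and *Rara* lie below the dotted line at -1 among detected neighbours at or above -0.80, and on the right *Thrb* alone lies above 1.

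The cofactors that receptors work with were measured in the same libraries. Of 10 corepressor genes, 0 were higher, 0 were lower and 10 were within 2-fold, with a median log2 change of -0.11. With a pseudocount of 0.1 or with none 1 was lower, and with TPM 2 were. *Ncor1*, the main corepressor of unliganded receptors, had an FPKM of 72.9 at the pre-pro-B stage and 66.2 at the pro-B stage. Of 13 coactivator genes, 11 were detected, of which 3 were lower in pro-B cells, 0 were higher and 8 were within 2-fold, with a median log2 change of -0.35. *Ncoa4* had 9.07 and 1.07, *Ncoa7* had 8.46 and 3.15, *Ncoa3* (SRC-3) had 23.3 and 9.84, and *Ncoa2* had 17.9 and 28.7. Of 8 chaperones and cochaperones of the glucocorticoid receptor, 2 were lower and 6 were within 2-fold. *Hspa8* had 102 and 27.1, and *Fkbp5*, which lowers the affinity of the receptor for hormone, had 26.5 and 8.12.

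Lists of known target genes held calls in both directions, as did all detected genes, of which 12.2% were higher and 19.1% lower. Of 10 glucocorticoid target genes, in pro-B cells 1 was higher, 2 were lower and 7 were within 2-fold, with a median log2 change of -0.30. With the most abundant transcript in place of the sum, 3 were higher. *Zbtb16* had 15.9 and 0.0407, *Dusp1* had 0.730 and 4.69, and *Per1* had 3.33 and 1.47. *Fkbp5* belongs to this list too. *Tsc22d3* (GILZ), a classical target, was within 2-fold at 27.2 and 19.1. In the list of retinoid synthesis, binding and breakdown, 3 of 12 genes were detected, of which 1 was higher, 1 was lower and 1 was within 2-fold. *Rdh10*, which oxidises retinol on the way to retinoic acid, had 5.39 and 60.0. *Dhrs3*, which acts in the reverse direction and is itself a retinoic acid target, had 44.8 and 1.00, and *Rdh11* had 15.7 and 28.9. The retinal dehydrogenase genes *Aldh1a1*, *Aldh1a2* and *Aldh1a3* were listed at 0 in both libraries.

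Of 8 liver X receptor target genes, 7 were detected, of which 2 were higher, 2 were lower and 3 were within 2-fold. The cholesterol exporter genes *Abca1* (8.03 and 0.0839) and *Abcg1* (17.5 and 7.52) were lower in pro-B cells. The desaturase gene *Scd1* (0.698 and 173) and *Mylip* (9.98 and 38.9), whose product degrades the LDL receptor, were higher. Of 10 targets of the peroxisome proliferator-activated receptors, 8 were detected, of which 2 were higher, 3 were lower and 3 were within 2-fold. *Cd36*, which takes up fatty acids, had 0.0636 and 12.9, and *Ucp2* had 78.9 and 789. The fatty acid oxidation gene *Acadm* (141 and 38.3) was lower. *Cd36* and *Fabp4* also stand in the list of 6 adipocyte markers, which summed to 5.68 and 16.1 and of which *Adipoq* was at 0.605 and 0.0268 and *Plin1* at 0 in both, and the part of stromal adipocytes in these values was not tested.

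Of 14 clock genes, 12 were detected, of which in pro-B cells 2 were higher, 3 were lower and 7 were within 2-fold, with a median log2 change of -0.71. With a pseudocount of 0.1, with none or with TPM, 6 were lower. *Arntl* had 8.53 and 164, a log2 change of 4.12, beside 1.45 and 0.0173 for *Nr1d1* and 7.55 and 8.45 for *Nr1d2*, the more abundant REV-ERB gene, so that the sum of both repressor genes was 1.06-fold lower in pro-B cells. *Bhlhe41* had a log2 change of 1.35. *Nfil3*, which encodes another target of REV-ERB repression, had 16.6 and 0.299, a log2 change of -3.76, and *Dbp* had a log2 change of -1.18. Over all genes whose promoter window holds the RORE, 0.219% of the promoters, 14 genes were detected, of which 1, *Arntl*, was higher, 4 (*S100a4*, *Ccr6*, *Hdac9* and *Macrod2*, named after their values were seen) were lower and 9 were within 2-fold. The libraries were single time points of culture, and whether their phase in the circadian cycle was the same is not given in the sources used here.

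**Figure D5:**
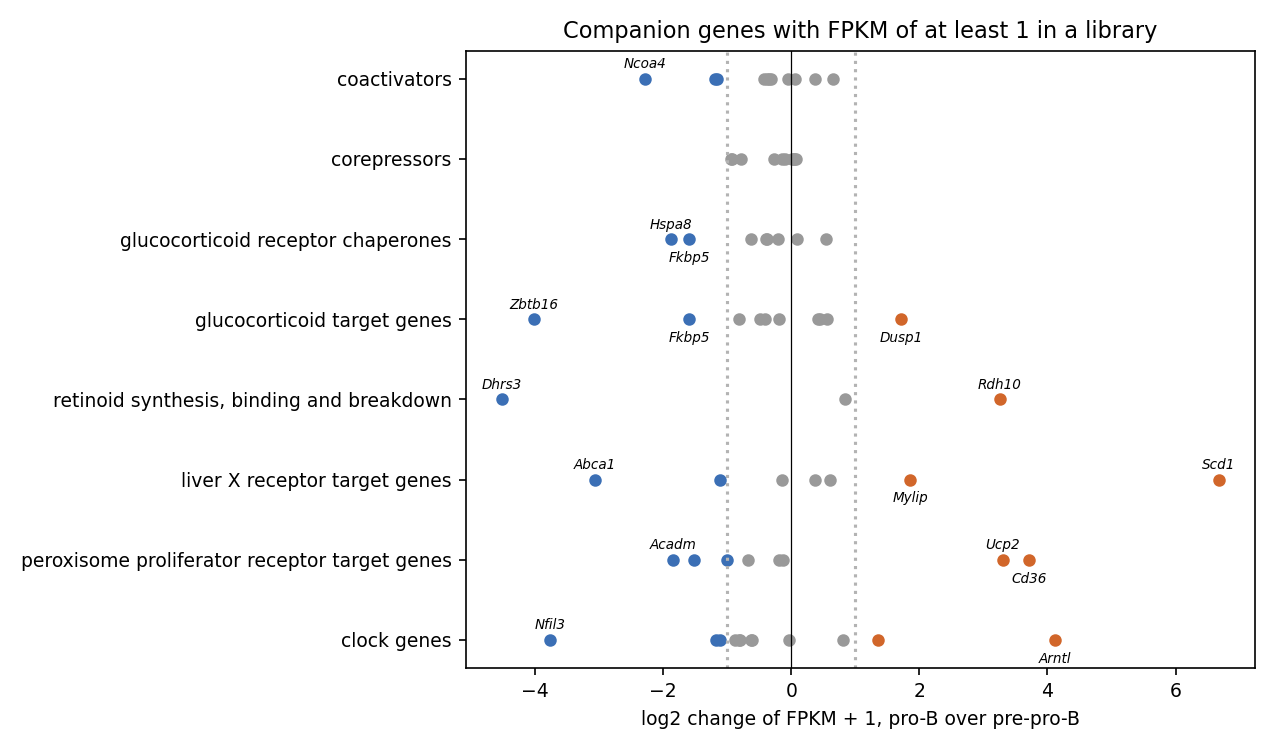
Log2 change of FPKM + 1 (pro-B over pre-pro-B) of the detected companion genes, by list, with genes at least 2-fold higher in orange, lower in blue and within 2-fold in grey. On this scale all 10 corepressors lie between the dotted 2-fold lines, while target lists hold genes on both sides, from *Dhrs3* at -4.51 to *Scd1* at 6.68.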

How the data were processed

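Total RNA depleted of ribosomal RNA from 1 pre-pro-B and 1 pro-B library was sequenced on strand-specific libraries to a nominal 90000000 single-end reads of 97 bp each, per the labels. The authors aligned reads to mm9 with TopHat 1.5 and estimated the deposited FPKM of 30485 RefSeq transcripts, with 95% limits, with Cuffdiff 2.1.1 (versions from the submitters' processing notes). Cuffdiff divides reads among transcripts. The paper also reports library sizes and mapped read numbers, which were not used here, so the nominal reads given above are rough. A further deposited table, which repeats FPKM and holds the authors' log2 fold changes, test statistics, p-values and q-values, was not used, nor were its 2 per-sample columns.

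Of 26580 protein-coding accessions, 26169 matched a symbol in a RefSeq gene table of GRCm38 (names only), and FPKM were summed per symbol into 20246 genes. All 72 receptor transcripts had status OK. Gene coordinates come from GENCODE M1 on mm9, promoters from RefSeq. Changes are log2(FPKM + 1), pro-B minus pre-pro-B, among genes that reached an FPKM of 1 in either library, and 2-fold was the limit. Every receptor past that filter is named, and of each companion list up to 4 genes with the largest change, some of which are not reported here; *Tsc22d3*, *Ncor1*, the *Aldh1a* genes, *Casc3*, *Msl1* and other neighbours are named in addition. The receptors, lists, motifs and rules were chosen with earlier results of these data known. Python 3.11.15, numpy 2.4.6 and pandas 2.3.3 were used. Only the 2-fold rule was run on simulated data. Its changes were free of noise and larger than the limit, so the outcome was fixed in advance. Alternatives were other pseudocounts, filters, scalings, transcript choices and a 4-fold limit.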

Additional observations from a re-analysis of the deposited data

How the results depend on the processing

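No paired analysis was possible because each cell type had 1 library, and no library could be left out. All 9 called receptors kept their call with median-ratio scaling (a shift of 0.09 on the log2 scale) and with the most abundant transcript. Leaving out the filter, duplicated rows or rows without status OK could not change a receptor call. No receptor row was duplicated, all 72 had status OK, and a pseudocount of 1 keeps genes below 1 in both libraries within 2-fold. With a pseudocount of 0.1, or with none, *Esrra*, *Ppard* and *Nr6a1* were added, which gave 2 receptors higher and 10 lower of 19. Of all genes, 1494 were higher and 2325 lower of 10525 with 0.1, and 1471 and 2146 of 10281 with none. TPM shifted the libraries by -0.12 against each other. It also raised every value against the fixed limit and pseudocount of 1. FPKM over all genes summed to 310382 in the pre-pro-B and 337576 in the pro-B library, below the total of TPM. With TPM 26 receptors passed the filter, of which 2 were higher and 13 were lower. Of all 11509 genes 1458 were higher and 2842 lower. The receptors *Nr3c2*, *Esrra*, *Vdr*, *Ppard*, *Nr1h3* and *Nr1h4* were added. An FPKM of at least 1 in both libraries left 0 receptors higher and 3 lower (*Rara*, *Thra* and *Nr2c1*), and 998 lower genes of 8850, because the genes low in 1 library were no longer included. A 4-fold limit left *Rara*, *Rarg* and *Thrb*, so that 2 receptors were lower, and of all genes 452 were higher and 786 lower. Of 171 recomputed log2 changes of receptors, 0 reversed among the called ones and 17 moved by over 1.5-fold, and 41 of 360 list counts moved. Settings of filter, duplicated rows or status could not change a receptor's log2 value, so their part of the 171 is no check. Low levels and single libraries limit the reading: the limits of all called receptors but *Nr4a2* overlapped.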
